A study of Mus musculus with 38 samples.

Results

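The nuclear-encoded subunits of oxidative phosphorylation were followed across 4 populations of macrophages sorted from the mouse lung. Gene identifiers were matched to mouse symbols, and the genes whose symbols begin with Nduf, Uqcr, Cox4 to Cox8 or Atp5 were taken along with Sdha, Sdhb, Sdhc and Sdhd. After 11 pseudogenes and predicted genes had been left out, 93 genes remained of the 43346 gene identifiers counted. By complex they were 44 genes of complex I (7 core subunits, 29 accessory subunits and 8 assembly factors), 4 of complex II, 8 of complex III, 20 of complex IV and 17 of complex V. Of these, 87 passed the filter on low counts and were tested, and the 6 that did not all belonged to complex IV.

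RNA came from lungs of naive C57Bl/6 mice, 8 to 10 weeks old and at steady state, with no treatment or genetic change named for any population. Alveolar macrophages (AM) were sorted as cells positive for CD11c and Siglec F and negative for CD11b, CD103, Gr1 and lymphoid markers. The interstitial macrophages (IM) were first enriched for MerTK and then sorted as CD64-positive, CD11b-positive cells lacking Siglec F, CD24, CD43, Ly6G and lymphoid markers. They were split by 2 surface proteins, CD206 (a mannose receptor) and MHC class II. IM1 cells were high for CD206 and low for MHC class II, IM2 cells were high for both, and IM3 cells were low for CD206 and high for MHC class II. Each population had 3 libraries, named replicates A, B and C. AM and IM cells were thus prepared by different routes, which cannot be told apart from the populations themselves. The labels do not say whether replicates were separate animals or pools, so the p-values measure only the spread between these libraries, which may be technical.

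Oxidative phosphorylation takes place in the inner mitochondrial membrane. Complex I (NADH dehydrogenase) and complex II (succinate dehydrogenase, also an enzyme of the TCA cycle) pass electrons to ubiquinone, complex III passes them to cytochrome c, and complex IV (cytochrome c oxidase) to oxygen. Complexes I, III and IV pump protons, and complex V (ATP synthase) uses the resulting gradient to make ATP. Most subunits are encoded in the nucleus and imported, and the rest are encoded by mitochondrial DNA. Alveolar macrophages live in the air space, feed on surfactant lipid and are known for a strong reliance on mitochondrial oxidation.

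The libraries held 11818981 to 15758326 reads assigned to genes, so that 3 counts, the most that a value of 0 allows, corresponded to 0.19 to 0.254 CPM (read counts scaled to library size). Intervals and limits of this kind cover counting error only. The markers, given as CPM of assigned reads, matched the labels. Alveolar macrophage markers (7 genes, among them Chil3, Marco and Siglecf) summed to 46080 to 53650 CPM in AM and 162.8 to 596.3 in IM, and interstitial markers (7 genes, among them C1qa and Apoe) to 889 to 977.8 CPM in AM and 16690 to 42340 in IM. The AM part of the interstitial sum was almost wholly Mrc1, the gene for CD206, at 874.3 to 956.8 CPM. Mrc1 was at 1700 to 2546 CPM in IM1 and IM2, but at 703 to 791.2 in IM3, below every AM library. General macrophage markers (6 genes) summed to 35140 to 43730 CPM in AM and 18380 to 27610 in IM. Lyz2 made up the largest part, at 31720 to 40200 CPM in AM and 10190 to 15650 in IM. Cd68 and Mertk were also lower in IM. Csf1r (471.5 to 543 CPM in AM, 4708 to 8239 in IM), Adgre1 and Fcgr1 were instead higher in every IM library than in any AM library. Proliferation markers (Mki67, Top2a, Ccnb1 and Birc5) were higher in AM, at 204.8 to 230.4 CPM against 10.35 to 52.27 in IM, with none of the 4 at 0 in any population. Endothelial markers (5 genes) summed to 91.95 to 110.9 CPM in AM and 35.28 to 108.9 in IM, and alveolar type 2 markers (6 genes) to 65.59 to 68.09 and 7.434 to 55.14. These AM sums were almost wholly Vwf (91.95 to 110.9 CPM) and Epcam (65.59 to 67.52), with 3 and 2 genes of the lists at 0 in AM. The other endothelial genes were near 0 in AM and higher in IM, as Pecam1 at 0 to 0.06926 CPM against 4.569 to 24.89. Among the type 2 genes, Sftpc was at 0 to 0.5227 CPM in AM and 4.099 to 34.74 in IM. Dendritic cell markers (4 genes) summed to 1.895 to 2.665 CPM in AM and 22.79 to 57.11 in IM, and ciliated cell markers (4 genes) to 168.2 to 189.7 in AM, 154.4 to 301.4 in IM1 and IM2 and 307.6 to 386.5 in IM3. The ciliated sum was almost wholly Tppp3, at 168.1 to 189.6 CPM in AM and 307.6 to 386.5 in IM3. The other 3 genes were at most 0.8921 CPM in any library, and all 3 were at 0 in IM3. The part of these markers in the differences described here was not tested. One library stood apart. In IM1 replicate A, 2.915% of assigned reads fell in genes with exons of 700 bases or less, against 0.809% to 1.849% in the other libraries. Cytosolic ribosomal protein genes took 0.768% of its reads against 0.37% to 0.547%, and most of the respiratory genes were higher in it than in any other IM library. Results are therefore given with and without IM1 replicate A.

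The summed level of the 93 genes was lower in every IM library than in every AM library, except in IM1 replicate A. The sum stood at 11840, 12140 and 11160 CPM in AM replicates A, B and C. It was 8343, 7021 and 7450 CPM in IM2 and 7565, 7896 and 7376 CPM in IM3, with no overlap between either population and AM. In IM1 it was 12960 CPM in replicate A but 7668 and 8726 CPM in replicates B and C, so that IM1 reached above AM through a single library. The means were 11710 ± 502.1 CPM in AM, 9785 ± 2800 in IM1, 7605 ± 674.4 in IM2 and 7612 ± 263.2 in IM3 (SD, n = 3 each). These gave ratios to AM of 0.8353, 0.6492 and 0.6499, and that of IM1 was 0.6998 without replicate A. As shares of all assigned reads, the 93 genes took 1.049% to 1.104% in AM, 0.757% to 0.784% in IM3 and 0.734% to 0.859% in IM2, and 1.254%, 0.835% and 0.923% in IM1 replicates A, B and C. In bulk libraries a lower share of cells with a transcript and less of it per cell cannot be told apart.

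**Figure D1:**
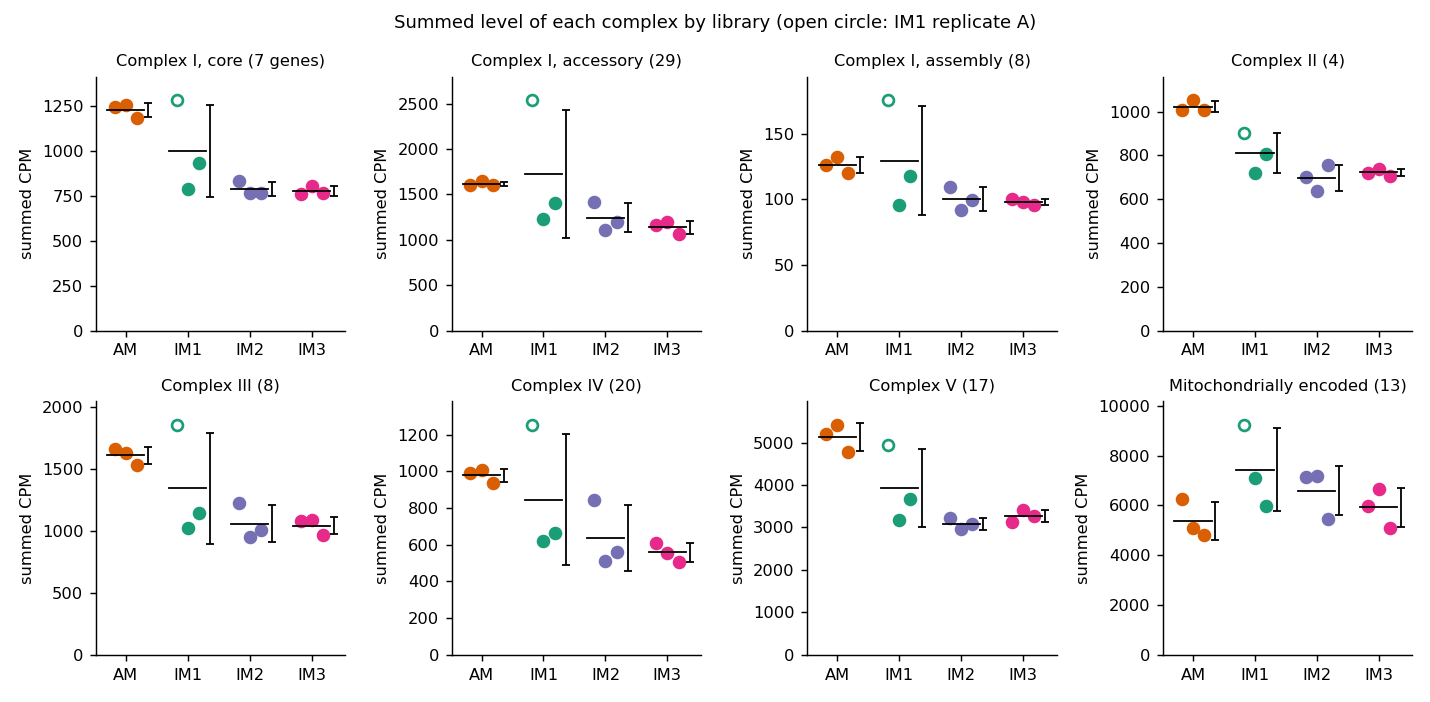
Summed CPM (linear axis, TMM-scaled) of the genes of each complex, and of the 13 mitochondrially encoded subunits, in the 12 libraries by population, with a point per library (open circle, IM1 replicate A), a line for the mean and a bar for the SD of 3 libraries. In all 7 nuclear panels the IM2 and IM3 points lie below the AM points, as for complex V at 2957 to 3410 CPM against 4781 to 5424, while IM1 replicate A lies above AM for 5 of the 7.

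Gene by gene, 39 of the 87 tested genes were lower and 4 higher in the mean of the 3 IM populations than in AM (edgeR's quasi-likelihood test, Benjamini-Hochberg adjusted over 14095 genes, called at an adjusted p under 0.05). That is 44.8% of the tested genes lower and 4.6% higher, against 28.7% of all genes tested called lower and 35.9% called higher. The median log2 fold change of IM over AM was -0.39 for these genes and 0.10 for all genes, and 73 of the 87 had a negative value. Without IM1 replicate A the counts were 60 lower (69.0%) and 4 higher, against 30.8% of all genes lower, and the median was -0.49. All 39 genes called lower with every library were called lower without it, and 21 were added.

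Each IM population was also set against AM. These comparisons share the 3 AM libraries, so they are given side by side and not as independent results. In IM3, 50 genes were lower (57.5%) and 3 higher (all genes 25% lower and 32.4% higher), with a median log2 fold change of -0.60. In IM2, 38 were lower (43.7%) and 4 higher (all genes 26.2% lower and 34.3% higher), with a median of -0.47. In IM1, 18 were lower (20.7%) and 5 higher (all genes 25.7% lower and 33.1% higher), and the median was -0.07. The share lower in IM1 was thus below that of all genes, and the IM1 median was 0.07 when libraries were scaled by their totals alone. That scaling also moved the median of all genes for IM1 against AM from 0.12 to 0.28. Without replicate A, 46 were lower in IM1 (52.9%, all genes 26.6%) and 4 higher, with a median of -0.45. Without IM3 replicate C, 33 genes passed the test between IM3 and AM in place of 53, and the share of all genes is not given for that setting.

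All 9 IM libraries lay below all 3 AM libraries for 17 of the 87 genes (19.5%), against 22.2% of all genes tested, so with every library counted the share was no larger than the background. Leaving out IM1 replicate A, it was 45 genes (51.7%) against 25.6%. The 17 included Ndufv1, Ndufs1, Ndufa10 and Ndufaf5 of complex I, Sdha, Sdhc and Sdhd of complex II, Uqcrc1, Uqcrc2 and Uqcrfs1 of complex III, Cox5a and Cox6b2 of complex IV, and Atp5b, Atp5c1, Atp5f1 and Atp5g3 of complex V. They include the subunits that bind NADH and succinate, the Rieske protein of complex III and the catalytic beta subunit of ATP synthase. All IM libraries lay above all AM libraries for 3 tested genes, Cox6a2, Cox7c and Ndufaf7. Of these, Cox6a2 passed the filter on low counts only through its IM libraries. The share of all genes that lay above AM in this way is not given, so the count of 3 cannot be set against a background.

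**Figure D2:**
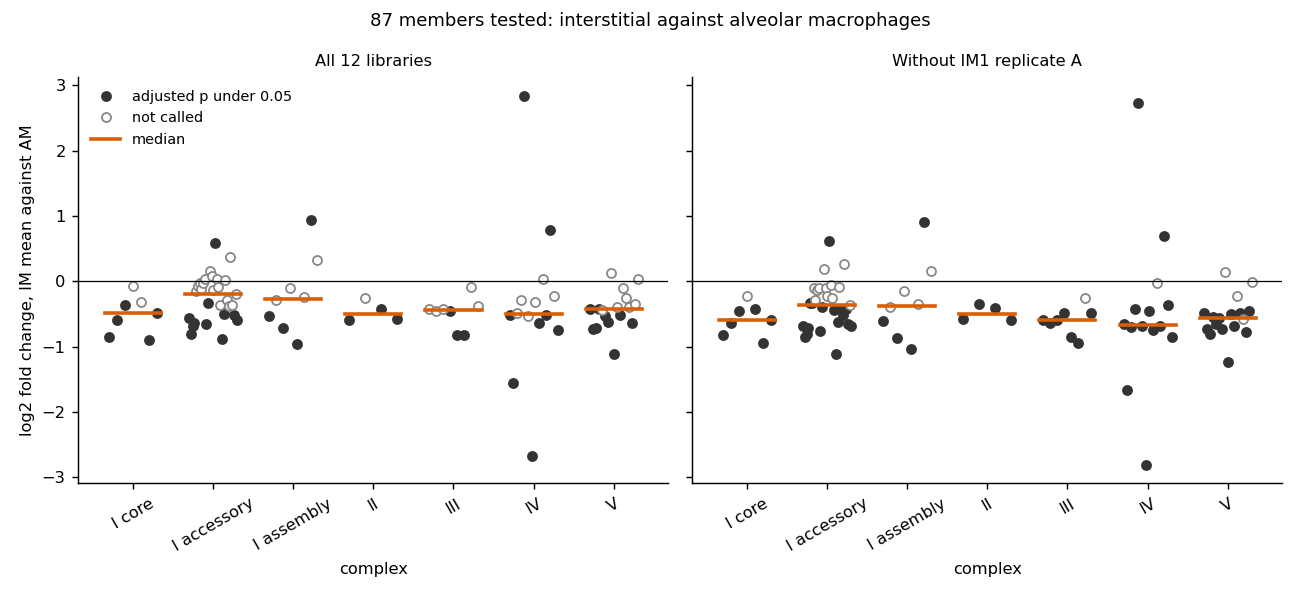
Log2 fold change of the IM mean over AM (y axis) for the 87 tested genes by complex, with all 12 libraries (left) and without IM1 replicate A (right), with a point per gene (filled, adjusted p under 0.05 in edgeR) and a line for the median. Most points lie below 0 in every complex, and with all libraries Cox6b2 (-2.68) and Cox6a2 (2.84), both of complex IV, lie at the ends.

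Complex I takes electrons from NADH through a chain of iron-sulfur clusters in its core subunits. Of its 7 nuclear core subunits 5 were lower in IM and none higher, against 28.7% of all genes lower. The median log2 fold change of these subunits was -0.49 (6 lower and -0.60 without IM1 replicate A, against 30.8% of all genes lower). Their sum lay below the AM range in IM2 and IM3, at 762.1 to 829 CPM and 759.7 to 806.5 CPM against 1180 to 1255 in AM. Ndufv1 (ENSMUSG00000037916, mm10 chr19:4007384-4012806) encodes the flavin subunit that oxidises NADH. It stood at 207.0, 208.9 and 198.1 CPM in AM, and the lowest, median and highest of the 9 IM libraries were 95.04, 108.7 and 140.3 CPM. All IM libraries were below all AM libraries, and the log2 fold change was -0.90 ± 0.10 (SE, adjusted p = 6.01e-07). Ndufs1, the large iron-sulfur subunit of the NADH-oxidising arm, was at 148.6, 148.6 and 148.4 CPM in AM and between 65.8 and 97.7 CPM in IM. IM1 replicate A was among the lower IM libraries for this gene, and the log2 fold change was -0.86 ± 0.11 (adjusted p = 3.78e-06).

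The accessory subunits of complex I surround this core and stabilise it. Of 29, 10 were lower in IM and 1 higher, with a median of -0.20 (16 lower and -0.36 without IM1 replicate A). The count of 10 is near the 28.7% of all genes called lower. Ndufa10 was at 147.2, 162.2 and 141.8 CPM in AM against 72.21 to 117.3 in IM (log2 fold change -0.80 ± 0.11, adjusted p = 1.2e-05), with no overlap. Ndufb6, of the membrane arm, was at 15.27, 10.18 and 11.56 CPM in AM. In IM its lowest, median and highest values were 2.977, 5.471 and 16.95 CPM, and the highest, IM1 replicate A, lay above AM. Its log2 fold change was -0.89 ± 0.32 (adjusted p = 0.0229), and the call was lost without AM replicate A (adjusted p = 0.124). Ndufa11, also of the membrane arm, was lower in IM by -0.68 ± 0.20 on the log2 scale (adjusted p = 0.00806). Ndufb2 was the accessory subunit called higher, at 2.732, 5.614 and 4.198 CPM in AM and 4.898 to 8.13 in IM. The groups overlapped, and its call (log2 fold change 0.58 ± 0.22, adjusted p = 0.0329) was lost without AM replicate A, AM replicate C, IM1 replicate C or IM3 replicate C, at adjusted p = 0.222, 0.0842, 0.0521 and 0.0537. Ndufa3, Ndufb3 and Ndufb8 were not called and had log2 fold changes of -0.02, 0.03 and 0.02.

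Assembly factors of complex I act during its construction and are not part of the finished enzyme. Of the 8 with an Nduf symbol, 3 were lower in IM, 1 was higher and 4 did not pass the test. With 28.7% of all genes called lower, 3 of 8 is near the background. Ndufaf5, which modifies a core subunit, was at 9.038, 13.75 and 8.838 CPM in AM against 3.717 to 7.69 in IM (log2 fold change -0.96 ± 0.19, adjusted p = 0.000418). Ndufaf3 (-0.72 ± 0.19, adjusted p = 0.00339) and Ndufaf1 (-0.53 ± 0.16, adjusted p = 0.0076) were lower as well. Ndufaf7 (chr17:78937136-78948052), a methyltransferase, went the other way. It was at 12.61, 10.18 and 12 CPM in AM and at 18.67, 21.71 and 26.56 CPM in the lowest, median and highest IM libraries. Every IM library exceeded every AM library, at a log2 fold change of 0.94 ± 0.14 (adjusted p = 3.12e-05).

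**Figure D3:**
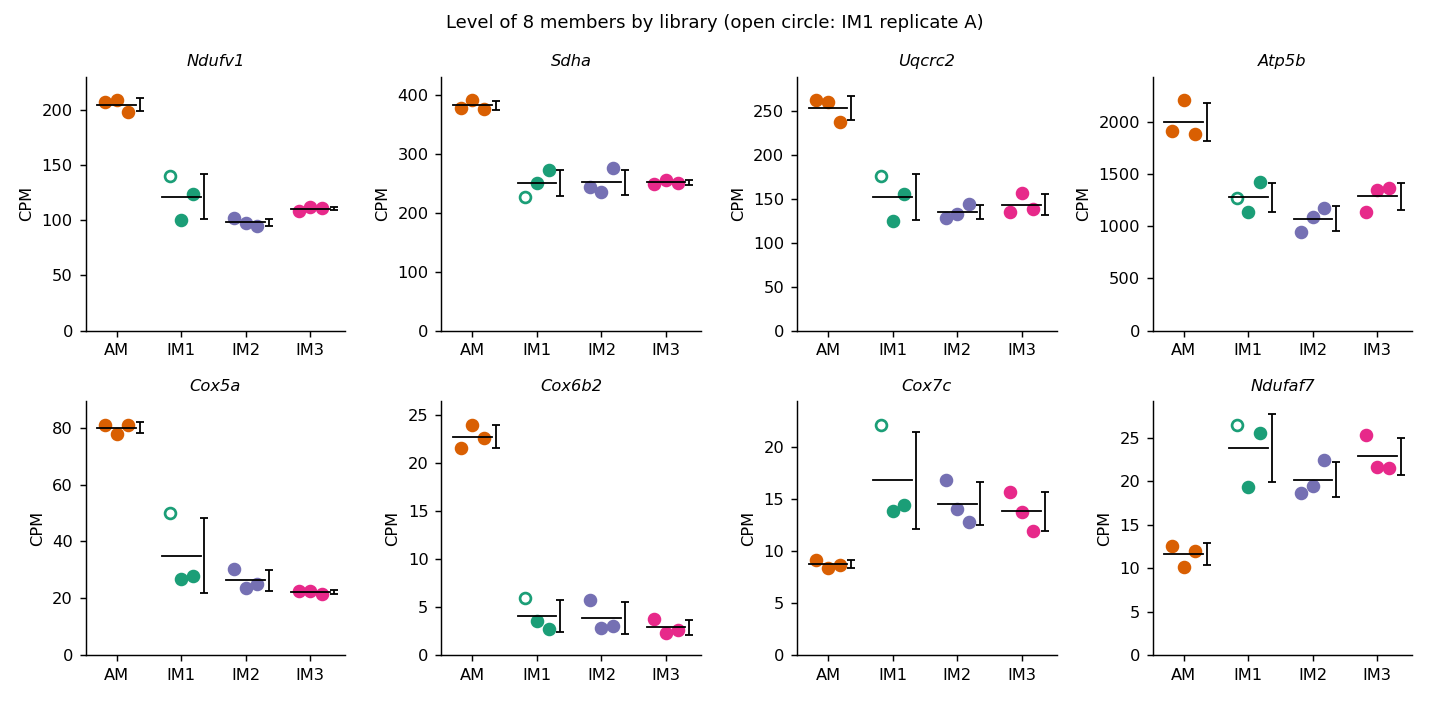
TMM-scaled CPM (linear axes from 0) of 8 genes in the 12 libraries by population, with a point per library (open circle, IM1 replicate A), a line for the mean and a bar for the SD of 3 libraries. Ndufv1, Sdha, Uqcrc2, Atp5b, Cox5a and Cox6b2 lie lower in all 9 IM libraries than in AM, and Cox7c and Ndufaf7 lie higher.

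Complex II is the one complex encoded wholly in the nucleus. Sdha and Sdhb form its catalytic head and Sdhc and Sdhd its membrane anchor. Its summed level was 1009, 1052 and 1008 CPM in AM, 901.2, 719.7 and 806.5 in IM1, 700, 637.5 and 754.0 in IM2 and 719.3, 739.4 and 707.1 in IM3. All 9 IM libraries, IM1 replicate A included, lay below all 3 AM libraries. Sdha (ENSMUSG00000021577, chr13:74322254-74350280), the flavoprotein that oxidises succinate, was at 378.9, 391.4 and 377.0 CPM in AM. Its IM libraries lay between 227.7 and 276.3 CPM with a median of 250.6, and IM1 replicate A was the lowest of them. The log2 fold change was -0.60 ± 0.09 (adjusted p = 1.97e-05), and the single populations against AM gave -0.61 (IM1), -0.60 (IM2) and -0.60 (IM3). Sdhc (-0.42 ± 0.09, adjusted p = 0.00104) and Sdhd (-0.57 ± 0.11, adjusted p = 0.000199) were lower too. Sdhb, the iron-sulfur subunit, was at 257.5, 272.8 and 287.0 CPM in AM, but IM1 replicate A was at 357.8 CPM while the other IM libraries lay between 174.8 and 252.1. It was not called (log2 fold change -0.25 ± 0.14, adjusted p = 0.137) and was called lower without that library (-0.35, adjusted p = 0.00184).

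In complex III, 3 of 8 subunits were lower in IM and none higher (median -0.45), near the 28.7% of all genes called lower. Without IM1 replicate A 7 were lower (median -0.59), against 30.8% of all genes. Uqcrc2 (chr7:120635176-120659524), a core structural subunit, was at 262.7, 261.1 and 237.4 CPM in AM and at 125.1, 138.2 and 176.5 CPM in the lowest, median and highest IM libraries. The groups did not overlap (log2 fold change -0.82 ± 0.10, adjusted p = 3.16e-06). Uqcrfs1, the Rieske iron-sulfur protein that carries electrons towards cytochrome c, was at 309.3, 261.8 and 251.8 CPM in AM against 124.4 to 237.5 in IM (-0.83 ± 0.16, adjusted p = 0.000299). Uqcrc1, the partner of Uqcrc2, differed less (-0.46 ± 0.10, adjusted p = 0.000862). Uqcr10 is a small subunit and had the highest level per kilobase of exon among the 93 genes, at 547.4 CPM per kilobase in AM and 415.8 in IM. It was not called with all libraries (-0.43 ± 0.19, adjusted p = 0.0529), where IM1 replicate A was at 496.8 CPM and AM at 289.6 to 345.5, and it was called lower without that library (-0.59, adjusted p = 3.17e-05). Next in level per kilobase were Atp5b, at 472.3 in AM and 285.8 in IM, and Ndufa4, at 350.4 and 220.7. These lengths count all annotated exon bases, 584 for Uqcr10 and 4237 for Atp5b, whose longest transcripts have 434 and 1916 bases. The ranking therefore depends on the length used.

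Complex IV held both the lowest and the highest fold changes. Of its 14 tested genes 6 were lower and 2 higher in IM (median -0.49), against 28.7% lower and 35.9% higher among all genes. Without IM1 replicate A 11 were lower (median -0.67), against 30.8% of all genes. Cox5a (ENSMUSG00000000088, chr9:57521274-57532426), a matrix-side subunit without tissue-specific copies, was at 81.2, 77.89 and 81.09 CPM in AM. In IM the lowest, median and highest values were 21.38, 24.85 and 50.16 CPM, the highest being IM1 replicate A. All IM libraries were below all AM libraries, at a log2 fold change of -1.56 ± 0.15 (adjusted p = 1.76e-07), and the single populations gave -1.85 (IM3), -1.61 (IM2) and -1.20 (IM1). Of the Cox5a exon bases 38.7% overlap Gm26631 on the opposite strand, and counting ignored strand. Ndufa4 (chr6:11900292-11907497) carries a complex I name but is now placed with complex IV, and it was at 172.9, 175.4 and 168.9 CPM in AM. Its IM values ran from 66.04 to 221.6 CPM with a median of 92.9, and only IM1 replicate A exceeded AM (-0.74 ± 0.16, adjusted p = 0.000742). Cox7c (chr13:86044816-86046904), a small membrane subunit, was one of the 2 called higher. It was at 9.178, 8.421 and 8.617 CPM in AM and between 11.98 and 22.2 in IM, without overlap (0.78 ± 0.17, adjusted p = 0.00103). Annotated pseudogenes match 32.9% of its transcript at 95% identity or more, and reads that mapped to several places were not counted, so its level is uncertain. Cox7a2l, which takes part in joining complexes III and IV, was at 41.61 to 48.98 CPM in AM and 39.49 to 64.05 in IM and was not called (0.04 ± 0.14, adjusted p = 0.824).

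Several subunits of complex IV exist in a widely expressed form and a form known from muscle, testis or lung. Cox6b2 (ENSMUSG00000051811, chr7:4751792-4753094), known as the testis form of Cox6b1, was at 21.58, 24 and 22.61 CPM in AM. The IM libraries lay between 2.273 and 5.942 CPM with a median of 3.027, all far below AM (log2 fold change -2.68 ± 0.22, adjusted p = 2.95e-08). Cox6b2 took 14.92% ± 1.186 (SD, n = 3) of the reads of the Cox6b1 and Cox6b2 pair in AM and 3.813% ± 0.5374 (n = 9) in IM. The range was 14.14% to 16.29% in AM and 3.106% to 4.561% in IM, IM1 replicate A included, so this share did not overlap between the groups (difference -11.11 percentage points, two-sided exact permutation p = 0.00909, adjusted over 5 isoform shares 0.0152). With 9 libraries against 3, 0.00909 is the smallest p the test can give. The test treats the 9 IM libraries as exchangeable, although they come from 3 populations and same-letter IM1 and IM2 libraries deviated together, which this p and those of the other isoform shares do not take into account. Cox6a2 (chr7:128205435-128206387), the heart and muscle form of Cox6a1, was nearly absent from AM, with 2, 3 and 1 reads. It had 32, 21 and 25 reads in IM1, 20, 18 and 15 in IM2 and 12, 4 and 7 in IM3. Its share of the Cox6a1 and Cox6a2 pair was 0.2334% ± 0.1058 in AM and 2.347% ± 0.9948 in IM (difference 2.114 percentage points, exact permutation p = 0.00909, adjusted 0.0152), and its fitted log2 fold change was 2.84 ± 0.55 (edgeR, adjusted p = 0.000308). Cox6a2 reached the filter's minimum count of 10 only in IM libraries, so it was tested only because it is high there. Its call and its share test are therefore not independent of that filter and serve as description. Itgad lies on the opposite strand over 10.5% of the Cox6a2 exon bases and was far higher in AM, at 32.56 to 41.76 CPM.

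The summed markers of heart and striated muscle, like Cox6a2, were higher in IM than in AM. The 8 marker genes summed to 0.698 to 0.7618 CPM in AM, where 6 were at 0, against 8.268 to 12.78 in IM3, where 3 were at 0, 15.85 to 22.6 in IM1 and 25.73 to 26.68 in IM2. Tnni3 led them, at 6.346 to 18.91 CPM in IM. Their part in the Cox6a2 difference was not tested.

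The 6 genes that did not pass the filter are all alternative forms as well. Cox4i2, the form of Cox4i1 known from lung and oxygen sensing, had 1 to 6 reads per AM library and 1 to 19 per IM library. Cox7a1, a heart and muscle form, had 1 to 5 reads in AM and 0 to 13 in IM. Ndufa4l2, a paralogue of Ndufa4 known as induced by low oxygen, had 0 reads in all 3 AM libraries. It had 2, 3 and 1 in IM1, 3, 5 and 7 in IM2 and 8, 9 and 13 in IM3, which over all IM libraries is at least 5.555-fold higher than 3 counts over the AM group. Cox7b2 had 1 read in all, in IM2 replicate C, and Cox8b had 1, in IM3 replicate A, while Cox8c had none in any library. Mural cells of vessels are known to express Cox4i2 and Ndufa4l2. Mural markers (7 genes) summed to 10.22 to 11.57 CPM in AM, where 4 were at 0, 9.121 to 10.99 in IM3, where 1 was at 0, 13.54 to 17.01 in IM2 and 22.08 to 46.49 in IM1. Cspg4 (5.402 to 6.409 CPM in AM, 9.138 to 34.65 in IM1) and Acta2 made up most of the AM and IM1 sums. On average Pdgfrb and Notch3 were instead highest in IM3, with Pdgfrb at 1.459 to 3.462 CPM there and 0.6769 to 1.372 in IM1. Myh11 and Cnn1 were highest in IM2, and Rgs5 was near 0. Fibroblast markers (6 genes) summed to 0 to 0.3267 CPM in AM, where 5 were at 0, and 33.17 to 116.3 in IM. Their part in these counts was not tested.

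**Figure D4:**
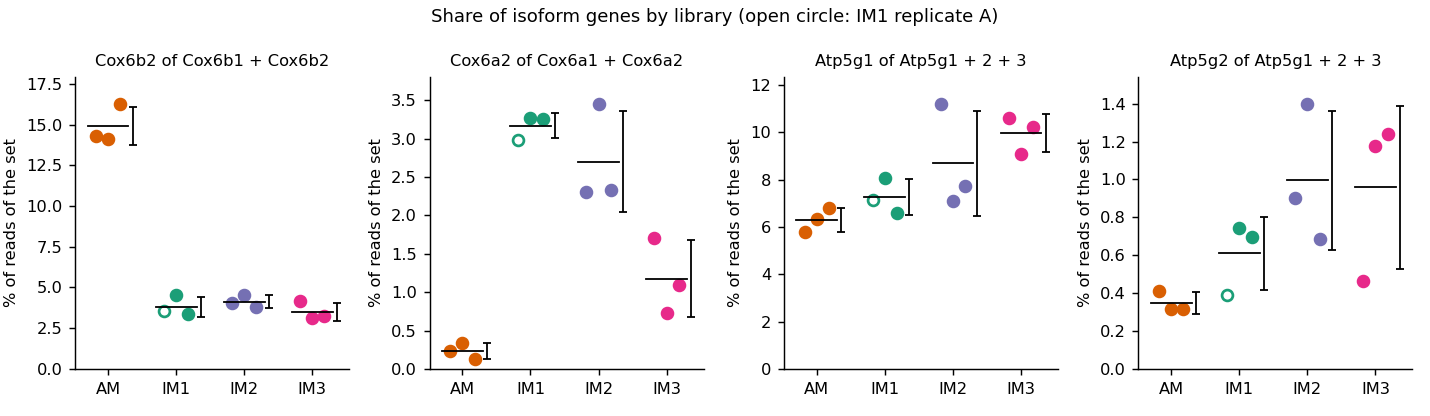
Percent of the reads of an isoform group taken by Cox6b2, Cox6a2, Atp5g1 and Atp5g2 in each library by population (linear axes from 0), with a point per library (open circle, IM1 replicate A), a line for the mean and a bar for the SD of 3 libraries. Cox6b2 takes 14.14% to 16.29% of its pair in AM and 3.106% to 4.561% in the 9 IM libraries.

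Against 28.7% of all genes lower in IM, complex V had 9 of 17 lower and none higher (median -0.43). It had 13 lower without IM1 replicate A (median -0.56), against 30.8% of all genes. Its sum was 4781 to 5424 CPM in AM, 3139 to 3410 in IM3 and 2957 to 3218 in IM2, and 4949, 3185 and 3660 in IM1 replicates A, B and C. Atp5b (ENSMUSG00000025393, chr10:128083273-128090391) encodes the catalytic beta subunit. It was at 1914, 2208 and 1881 CPM in AM and between 942.4 and 1420 in IM with a median of 1179, and IM1 replicate A, at 1273 CPM, lay within the range of the other IM libraries. The log2 fold change was -0.73 ± 0.10 (adjusted p = 1.51e-05). Atp5c1, the rotating gamma subunit, was at 244.5 to 263.0 CPM in AM and 129.3 to 217.8 in IM (-0.72 ± 0.12, adjusted p = 5.03e-05).

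The membrane ring of complex V is built of subunit c, for which Atp5g1, Atp5g2 and Atp5g3 encode the same mature protein behind different import sequences. Atp5g3 (chr2:73908447-73911326) was by far the most read of these genes. It was at 317.7, 332.8 and 281.0 CPM in AM and between 116.0 and 271.0 in IM with a median of 127.0, and its log2 fold change of -1.12 ± 0.14 was the lowest in complex V (adjusted p = 4.06e-06). Atp5g1 was lower as well (19.62, 22.53 and 20.55 CPM in AM, 9.258 to 20.88 in IM, -0.63 ± 0.19, adjusted p = 0.00906), while Atp5g2, at about 1 CPM, was not called (0.13 ± 0.36, adjusted p = 0.763). The makeup of the group shifted slightly. Atp5g3 took 93.35% ± 0.4512 of the reads of the 3 genes in AM and 90.5% ± 1.772 in IM (difference -2.849 percentage points, exact permutation p = 0.00909, adjusted 0.0152). Atp5g1 took 6.301% ± 0.4999 and 8.644% ± 1.7 (2.343, exact permutation p = 0.0182, adjusted 0.0182), and Atp5g2 0.3484% ± 0.05658 and 0.8549% ± 0.3512 (0.5065, adjusted exact permutation p = 0.0182). The 3 shares sum to the whole, so they are not independent of each other.

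Promoter sequence is shown for genes that moved in these comparisons and for Cox6a1, the partner of Cox6a2. The windows come from RefSeq (GRCm38.p6, the assembly of mm10), run 5′ to 3′ on the gene's strand, and were cut to the stretch before the start with no annotated exon. Capitals mark matches, on either strand, to GCGCATGC (the NRF1 motif) or CCGGAAG (an ETS motif, bound by GABP), factors known to act on respiratory genes. AAGATGGC (YY1) was searched too and is in none of them.
Ndufaf1, chr2:119662835-119663084, minus strand: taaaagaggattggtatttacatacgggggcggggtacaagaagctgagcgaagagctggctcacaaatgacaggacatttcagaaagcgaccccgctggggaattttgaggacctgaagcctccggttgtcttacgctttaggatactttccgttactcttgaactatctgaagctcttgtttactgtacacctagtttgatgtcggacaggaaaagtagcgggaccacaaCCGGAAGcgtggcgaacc
Cox6a1, chr5:115348982-115349129, minus strand: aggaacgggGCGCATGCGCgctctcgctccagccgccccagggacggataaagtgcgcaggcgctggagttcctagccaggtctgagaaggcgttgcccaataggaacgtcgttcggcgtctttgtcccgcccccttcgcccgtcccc
Atp5g3, chr2:73911327-73911576, minus strand: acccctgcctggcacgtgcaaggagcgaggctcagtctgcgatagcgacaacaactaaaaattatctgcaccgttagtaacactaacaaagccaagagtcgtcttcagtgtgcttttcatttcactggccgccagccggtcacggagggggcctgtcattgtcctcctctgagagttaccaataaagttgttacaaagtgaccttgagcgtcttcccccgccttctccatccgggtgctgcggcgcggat
Cox5a, chr9:57520982-57521231, plus strand: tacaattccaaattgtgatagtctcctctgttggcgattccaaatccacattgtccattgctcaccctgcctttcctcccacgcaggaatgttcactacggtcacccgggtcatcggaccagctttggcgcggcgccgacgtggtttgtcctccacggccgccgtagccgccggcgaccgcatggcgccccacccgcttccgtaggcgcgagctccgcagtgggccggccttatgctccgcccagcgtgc
Cox6b2, chr7:4753095-4753225, minus strand: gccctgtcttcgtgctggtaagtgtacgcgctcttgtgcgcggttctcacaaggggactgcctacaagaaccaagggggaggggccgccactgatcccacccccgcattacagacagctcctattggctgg

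Over the full RefSeq windows, 250 bases before to 50 after the start, 74 of the 93 genes had an entry. The NRF1 motif was in 12 of these (16.2%) against 3.05% of the 27025 genes in the table, the ETS motif in 18 (24.3%) against 9.93%, and the YY1 motif in 10 (13.5%) against 3.19%. At least 1 of the 3 was in 33 (44.6%) against 14.9%. The NRF1 motif overlaps its own reverse complement, and a window counts once. A match is a description of the letters and not a bound site, and the windows of Cox5a, Cox6b2 and Atp5g3 shown above hold none of the 3 words.

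Among the IM populations, the count of these genes called depended on single libraries, IM1 replicate A among them. Between IM1 and IM2, none of the 87 genes was called by edgeR (25 had an unadjusted p under 0.05), against 1.71% of all genes, and DESeq2's Wald test called 1. Between IM2 and IM3 none was called by edgeR either (2 had an unadjusted p under 0.05), against 11.4% of all genes. Between IM1 and IM3, 17 were called, all higher in IM1 (19.5%). Of all genes, 24.4% were called in this comparison and 12.7% were higher in IM1. Without IM1 replicate A only Atp5g3, Ndufa4 and Ndufa7 were still called, against 11% of all genes higher in IM1. The count was 2 without IM3 replicate C, 5 without IM3 replicate A or B and 52 without IM1 replicate B, and without that last library 23 were called between IM1 and IM2. Shares of all genes for these settings are not given, so the counts show dependence on single libraries only. The median log2 fold change of IM1 over IM3 went from 0.49 to 0.15 without IM1 replicate A (all genes 0.02 with every library). Ndufa4 had the smallest adjusted p, at 221.6, 107.8 and 136.8 CPM in IM1, 120.3, 86.48 and 92.9 in IM2 and 75.26, 69.89 and 66.04 in IM3. IM1 and IM3 did not overlap, with or without replicate A, and the log2 fold change was 1.14 ± 0.21 (adjusted p = 0.000767), and 0.80 without it (adjusted p = 0.000345). Atp5g3 (0.67 ± 0.18, adjusted p = 0.0155, and 0.35 with adjusted p = 0.0491 without replicate A) and the accessory subunit Ndufa7 (0.79 ± 0.22, adjusted p = 0.0142, and 0.41 with adjusted p = 0.0482) were closer to the threshold. Cox6a2 was higher in IM1 than in IM3 by 1.85 ± 0.49 (adjusted p = 0.0119), and was not called without replicate A (1.51, adjusted p = 0.0617). It passed the filter on low counts through IM1 and IM2, as IM3 had only 12, 4 and 7 reads. Its call between IM1 and IM3 is thus not independent of that filter and serves as description. IM1 and IM2 libraries of the same letter deviated together, and a fit of those 2 populations with the replicate letter as a block called Ndufa4 (0.59 ± 0.13, adjusted p = 0.0259), Atp5g3 (0.60 ± 0.15, adjusted p = 0.0374) and Atp5j2, a small subunit of complex V (0.60 ± 0.15, adjusted p = 0.0375), all higher in IM1.

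The excess in IM1 replicate A was larger for short genes. This library was the highest of the 9 IM libraries for 79 of the 87 genes, and the median log2 ratio to the mean of IM1 replicates B and C was 0.81 for them and -0.04 for all genes tested. It was 0.95 for the 46 genes with a coding length of 450 bases or less, 0.76 for the 28 above 450 and up to 1000 bases and 0.33 for the 13 longer ones. Over all genes of the same lengths it was 0.65, 0.25 and -0.22. Among the 13 longer genes 12 (92.3%) were lower in IM than in AM, with or without that library, and the other, Ndufaf7, was higher. Of all genes of that length 29.8% were lower. Among the 46 shortest, 15 (32.6%) were lower with every library and 29 (63.0%) without IM1 replicate A, against 29.7% and 39.2% of all genes of that length. What set this library apart was not tested.

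**Figure D5:**
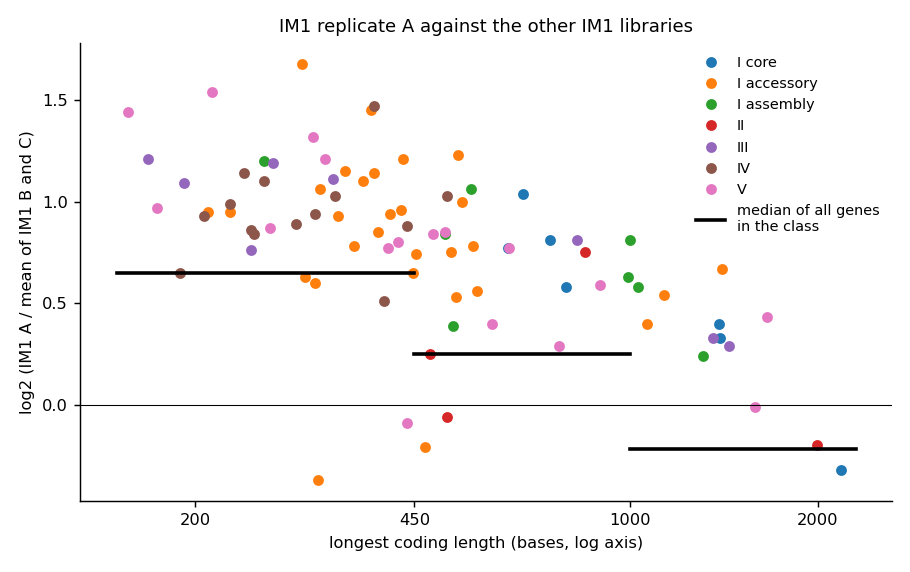
Log2 ratio of IM1 replicate A to the mean of IM1 replicates B and C (y axis) against coding length in bases (x axis, log scale) for the 87 tested genes, coloured by complex, with black lines for the median of all genes of the same length. The points lie higher for short genes, with a median of 0.95 at 450 bases or less and 0.33 above 1000 bases.

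The 13 subunits encoded by mitochondrial DNA did not share the direction of the nuclear ones. Of the 10 that were tested 4 were higher and none lower in IM, with a median of 0.44 (5 higher and 0.32 without IM1 replicate A). With 35.9% of all genes called higher, 4 of 10 is near the background. Their sum was 6252, 5075 and 4809 CPM in AM and 5086 to 9249 in IM, which overlap. The 4 were mt-Nd6 (5.899 CPM on average in AM and 11.11 in IM, log2 fold change 0.89 ± 0.25, adjusted p = 0.00544), mt-Nd2 (0.52 ± 0.17, adjusted p = 0.0155), mt-Nd1 (0.45 ± 0.17, adjusted p = 0.0269) and mt-Nd5 (0.36 ± 0.14, adjusted p = 0.0365), all subunits of complex I. mt-Co1, the catalytic subunit of complex IV, was at 1505 CPM in AM and 1510 in IM (0.00, adjusted p = 0.983). By population 8 were higher than AM in IM1, 1 in IM2 and none in IM3, against 33.1%, 34.3% and 32.4% of all genes. Without IM1 replicate A these counts were 5, 6 and 1, against 4753, 5260 and 5001 of all 14523 genes tested. The medians were then 0.45, 0.40 and 0.12, against 0.73, 0.40 and 0.12 with every library.

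The lists of nuclear genes that work beside the complexes differed in how many of their genes were lower in IM, and are read against the 28.7% of all genes called lower and 35.9% called higher. Of 14 subunits and carriers with other symbols, 10 were lower and none higher (median -0.62). Etfa, which feeds electrons from fatty acid oxidation to ubiquinone, was at 302.6 CPM in AM and 118.5 in IM (-1.35 ± 0.10, adjusted p = 4.07e-09), and Coq3, an enzyme of ubiquinone synthesis, at 30.05 and 9.607 (-1.65 ± 0.15, adjusted p = 1.09e-07). Of 39 tested assembly factors with other symbols 11 were lower and 2 higher (median -0.19), a share lower that is near the background. Cox18, which inserts a complex IV subunit into the membrane, was lower (-1.37 ± 0.17), and Lyrm7, which helps insert Uqcrfs1 into complex III, was higher (1.19 ± 0.35, adjusted p = 0.00767). Of 19 TCA cycle genes 14 were lower and 1 higher (median -0.55). Citrate synthase, Cs, was at 368.4 CPM in AM and 166.5 in IM (-1.15 ± 0.10, adjusted p = 8.65e-08), Ogdh at 961 and 384.1 (-1.33 ± 0.12, adjusted p = 9.72e-08), and Idh2 was the one called higher (0.37 ± 0.13, adjusted p = 0.0237).

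Of 25 genes for mitochondrial import, carriers and antioxidants 18 were lower and none higher (median -0.56). Slc25a5, an exchanger of ADP and ATP, was at 1133 CPM in AM and 390.8 in IM (-1.54 ± 0.11, adjusted p = 3.67e-09). Of 76 tested mitochondrial ribosomal proteins 37 were lower and 1 higher (median -0.39), led by Mrps6 (53.54 and 13.53 CPM, -2.01 ± 0.18, adjusted p = 5.63e-08). Cytosolic ribosomal proteins, by contrast, had 2 of 83 lower and 7 higher (median 0.06), and 13 lower and 8 higher without IM1 replicate A (median -0.06). Of 21 tested regulators of mitochondrial gene expression 7 were lower and 6 higher (median -0.18), near the shares of all genes. Pparg, the lipid-sensing factor that marks alveolar macrophages, was lower in IM (197.8 and 24.93 CPM, -3.21 ± 0.12, adjusted p = 2.1e-12), as was Esrra, a nuclear receptor of mitochondrial genes (44.56 and 26.39 CPM, -0.77 ± 0.17, adjusted p = 0.000962). Nrf1, whose motif was counted above, was higher (40.06 and 60.85 CPM, 0.60 ± 0.13, adjusted p = 0.000656).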

How the data were processed

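The deposited files hold raw read counts per gene and run. Per the file headers, featureCounts 1.5.0-p1 counted reads without strand on Ensembl 78 gene models, and reads that mapped to several places or genes were not counted. STAR 2.5.1b, mm10, DESeq2 1.8.1 and R 3.2.0 are named per the submitters' processing notes. Per the labels, 2 ng of RNA from about 50000 cells (RIN 9.2 to 10.0) entered SMART-Seq v4 amplification and Ion Proton sequencing. The 38 deposited runs were summed to 12 libraries. Symbols, coordinates and coding lengths came from GENCODE M21, which named 42462 identifiers. Exon lengths were those given with the deposited counts.

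Counts were tested with edgeR 4.0.16 under R 4.3.3 (TMM, filterByExpr with a minimum count of 10, robust quasi-likelihood F test) in 1 fit of all libraries by population. P-values were adjusted by Benjamini-Hochberg over 14095 genes. The fit assumes 1 spread for all populations, whereas chi-square per degree of freedom between replicates was 8.67 to 23.43 outside IM1 and 19.38 to 81.34 within it. Levels are TMM-scaled CPM. Isoform shares were compared with exact permutation tests in scipy 1.17.1. Near-identical copies were found with BLAST+ 2.17.0. The scripts were tested on simulated data. Alternatives were other scalings, DESeq2 1.42.0, voom in limma 3.58.1, no filter, fewer populations, the replicate letter as a block, and each library left out. Same-letter libraries correlated in IM1 and IM2 (0.50 to 0.58), which was taken as pairing there only.

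Named genes were, per complex, up to 3 called in each direction by fold change, all alternative isoforms and Sdh genes, the 3 highest per kilobase, the lowest adjusted p between IM populations, 3 not called with a log2 fold change near 0, and leading genes of each related list. The genes and lists were chosen with earlier results of these data known. One gene that the rule names is not reported here.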

Additional observations from a re-analysis of the deposited data

How the results depend on the processing

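The direction of the IM mean against AM held under every setting, with 32 to 64 of the 87 genes called when 1 library was left out. With the replicate letter as a block, 52 were lower and 4 higher. The 25 genes followed singly kept their direction in all 475 alternative values, and 5 lost the call (Ndufb2 and Ndufb6). With 1 library left out, the calls of IM1 against AM ranged from 17 to 50 (highest without IM1 replicate A; 16 with only these populations), and the median log2 fold change from -0.45 to 0.10 (positive without IM1 replicate B). Calls of IM3 against AM ranged from 33 to 66 with 1 library left out and were 67 with voom and 68 with only these populations, and the median was -0.48 with library totals alone, a scaling that moves the median of all genes from 0.09 to 0.21. IM1 against IM2 had 1 call with DESeq2's Wald test, 11 with no filter, 3 with the replicate block within these populations (added after seeing the data), and 0 to 23 with a library left out (highest without IM1 replicate B). IM1 against IM3 had 29 calls with library totals alone, 30 with DESeq2's Wald test, 10 with voom, 43 with no filter, 30 with the replicate block and 2 with only these populations. Leaving out a library gave 2 to 52 (lowest without IM3 replicate C, 3 without IM1 replicate A, 5 without IM3 replicate A or B, highest without IM1 replicate B). IM2 against IM3 had 1 call with voom, no filter or only these populations, and 0 to 1 with a library left out. The shares of all genes called under these settings are not given, except without IM1 replicate A. The counts therefore show how far the calls move and cannot be read as particular to the respiratory genes. The cause of these changes was not tested.

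Isoform differences with a library left out ranged, in percentage points, from -11.5 to -10.42 for Cox6b2, 1.976 to 2.317 for Cox6a2, -3.124 to -2.522 for Atp5g3, 2.022 to 2.598 for Atp5g1 and 0.4384 to 0.5649 for Atp5g2. Without an AM library the adjusted exact permutation p reached 0.0606 or 0.0727. The smallest unadjusted p that 9 against 2 libraries can give is 0.0364.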

Other observations

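Near-identical copies were counted because reads that map to several places were dropped. Of the 87 tested genes, 8 had a copy in another annotated gene over 50% or more of the transcript at 95% identity or more, over matches of at least 100 bases. Of these 2 were lower in IM and none higher (median log2 fold change -0.38), and of the other 79, 37 were lower and 4 higher (median -0.42). The 50 genes with no such match had 26 lower and 1 higher (median -0.42). Of all genes tested 28.7% were lower and 35.9% higher. Some matches are to genes whose exons overlap at the same place, as Rbm10 for Ndufb11 and Wdr77 for Atp5f1. Reads there fall in several genes and not in several places. The share of mapped reads set aside as multimapping was 13.88% to 14.48% in AM. It was 10.9% to 11.5% in IM3, 10.65% to 12.25% in IM2 and 11.8% to 14.78% in IM1, where replicate A was the highest.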
